A study of Mus musculus with 23 samples.

Results

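Syndecans and glypicans are the main families of cell surface proteins that carry heparan sulfate, a long sulfated sugar chain. Syndecans span the membrane, and their short cytoplasmic tails bind adaptor proteins and the cytoskeleton. Glypicans are held in the membrane by a lipid anchor. The chains of both families hold growth factors, morphogens and matrix proteins at the cell surface and present them to their receptors, and in cultured mesenchymal cells they take part in adhesion to the matrix and in the response to fibroblast growth factors.

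The 8 genes described here, Sdc1, Sdc2, Sdc3, Sdc4, Gpc1, Gpc3, Gpc4 and Gpc6, were taken by symbol from an expression table of 23284 genes, and all 8 were found. The remaining glypicans, Gpc2 and Gpc5, were listed at 0 in every library. The libraries came from 16 single mouse bone marrow mesenchymal stem cells (mMSC1 to mMSC16), 5 single HL-1 cardiomyocytes (HL1cm1 to HL1cm5) and 1 population control of each cell type (mMSC-PC and HL1cm-PC), which went through the same process with a bulk population of cells, so 23 libraries were compared. The mMSCs were purchased, came from 3-month-old male C57BL mice by the methods (C57BL/6J by the labels), and were used at passages 6 to 11. HL-1 is an atrial cardiomyocyte line that keeps dividing in culture, used here as a non-mesenchymal control at passages 70 to 85, and labelled with the same strain. The HL1cm were dyed green to tell them from mMSCs in the same capture device. The sources name no further treatment and no genetic change made to either cell type in this study. The mMSCs grew on gelatin and the HL1cm on fibronectin and gelatin in another medium with norepinephrine, so cell type, medium, coating and passage cannot be told apart. The sources name no separate cultures, so each cell type was treated as 1 sample: the spread given is the spread between cells, and no test between the cell types was run.

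The cell types matched their labels. Of 9 cardiomyocyte markers, 9 were more than 2-fold lower in mMSCs, and their summed level was 0 to 65.4 FPKM (fragments scaled by exon length and by the mapped fragments of the library) in mMSCs against 32901 to 60022 FPKM in HL1cm. Of 8 mesenchymal markers, 7 were more than 2-fold higher in mMSCs, with summed levels of 2146 to 6145 FPKM against 557 to 1005 FPKM, and the eighth, Thy1, was listed at 0 in all libraries. The HL1cm sums were nearly all Vim, at 555 to 1005 FPKM there and 693 to 3330 FPKM in mMSCs. Endothelial markers were listed at 0 in every mMSC. The summed macrophage markers were at 0 to 48.1 FPKM in mMSCs and 0 to 1.10 FPKM in HL1cm, with Csf1r above 0 in 8 mMSCs and Ptprc and Lyz2 listed at 0 in all of them. Between 5198 and 7641 genes were above 0 in an mMSC, between 6788 and 7226 in an HL1cm, and 10279 and 10157 in mMSC-PC and HL1cm-PC. A single fragment on a transcript of 1 kb was worth roughly 1.98 to 10.4 FPKM in the mMSCs and 2.37 to 3.77 FPKM in the HL1cm, so values of a few FPKM rest on very few fragments. A listed 0 is not proof of absence: 5 genes were at 100 FPKM or more in 15 mMSCs and at 0 in the other.

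The 4 syndecans are built on different outer domains but end in much the same way, which is why the ends of their coding sequences are shown first. The sequences run 5′ to 3′ on the coding strand from the start of the cytoplasmic tail to the last base before the stop codon, in GENCODE M21 transcripts on GRCm38 (mm10). The first 30 bases in capitals encode the conserved stretch next to the membrane, and the last 12 in capitals encode the 4 residues that PDZ domain proteins such as syntenin (Sdcbp) and Cask bind.
Sdc1: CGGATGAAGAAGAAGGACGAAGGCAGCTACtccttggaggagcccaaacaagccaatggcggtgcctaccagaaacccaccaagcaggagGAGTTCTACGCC
Sdc2: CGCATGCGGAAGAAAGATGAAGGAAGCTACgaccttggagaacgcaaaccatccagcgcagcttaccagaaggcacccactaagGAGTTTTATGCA
Sdc3: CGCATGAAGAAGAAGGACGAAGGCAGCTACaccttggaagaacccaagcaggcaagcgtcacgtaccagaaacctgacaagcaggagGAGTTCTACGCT
Sdc4: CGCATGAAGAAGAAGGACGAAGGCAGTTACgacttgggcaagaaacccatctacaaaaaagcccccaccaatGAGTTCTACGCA
The last 4 encoded residues were the same in all pairs of syndecans, and the first 10 were the same in Sdc1, Sdc3 and Sdc4 and differed at 1 residue in Sdc2. The lower case part between them is where the tails differ, and the printed tail was shortest in Sdc4 at 28 residues and longest in Sdc1 at 34. Over the whole proteins the syndecans were 37.9% to 49.0% identical, counted over the shorter of each pair. Among the glypicans, Gpc4 and Gpc6 were the closest pair at 64.3%, Gpc1 was 43.4% identical to Gpc4 and 47.0% to Gpc6, and Gpc3 stood apart at 24.8% to 27.1% with the other 3.

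The genes lie at separate places in the genome with 1 exception. In mm10, Sdc1 is at chr12:8771323-8793715, Sdc2 at chr15:32920723-33034935 and Sdc3 at chr4:130792537-130826319, all on the plus strand, and Sdc4 is at chr2:164424247-164443887 on the minus strand. Gpc1 is at chr1:92831645-92860779 and Gpc6 at chr14:116925315-117976544, both on the plus strand. Gpc4 at chrX:52053021-52165252 and Gpc3 at chrX:52272426-52613950 are both on the minus strand, 107 kb apart. These neighbours had different values: Gpc4 was above 0 in all 16 mMSCs and Gpc3 was listed at 0 in all 23 libraries.

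Across the single mMSCs, Sdc4 and Gpc1 were far above the other members, and both were much lower or listed at 0 in the HL1cm. Of the 8 members, 6 were more than 2-fold higher in mMSCs than in HL1cm by the difference in mean log2 FPKM (values under 1 FPKM set to 1), where 21.4% of the 11850 genes tested were. None was more than 2-fold lower, where 21.6% of genes were. The median difference of the 8 members was 3.09, against 0.08 for all genes tested. For 3 members, Sdc4, Gpc1 and Gpc4, every mMSC was above every HL1cm, where 2.26% of genes were so, and none had every mMSC below every HL1cm, where 1.88% of genes did. Sdc3, Gpc1 and Gpc6 entered the tested genes only through their mMSC values, and Gpc3, counted here with a difference of 0, did not enter them.

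**Figure D1:**
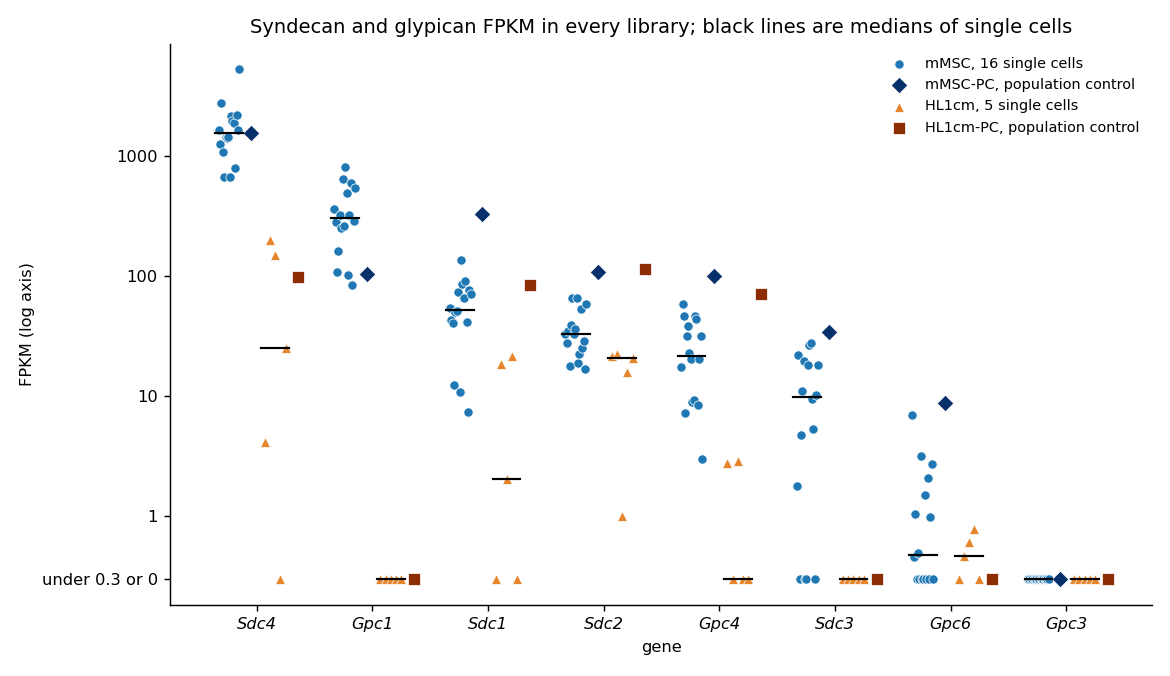
FPKM of each gene (horizontal axis) in every library on a log axis, with values under 0.3 FPKM drawn at the bottom. Circles are the 16 mMSCs and triangles the 5 HL1cm, black lines are medians of single cells, and diamonds and squares are the population controls. The mMSC points of Sdc4 start at 663 FPKM and all lie above the HL1cm points, the highest of which is 197 FPKM, and Gpc1 has no HL1cm point above 0.

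Sdc4, the most widely expressed syndecan and the one that gathers in focal adhesions, had the highest level. Its FPKM in the mMSCs had a lowest value of 663 in mMSC5, a median of 1533 and a highest value of 5193 in mMSC16. The median ranked 61 among the 23284 genes. In HL1cm1 to HL1cm5 the values were 4.14, 197, 149, 0 and 25.3 FPKM. All 16 mMSCs were above all 5 HL1cm, although the HL1cm themselves ran from 0 to 197 FPKM. The mean log2 FPKM was 10.57 ± 0.76 (SD, n = 16) in mMSCs and 4.31 ± 3.29 (SD, n = 5) in HL1cm, a difference of 6.26. Between mMSCs the SD of Sdc4 was below the median SD of 1.38 over 10867 genes expressed in mMSCs, and 15.2% of these genes had a smaller SD. The genes were not matched for level, so the part of the high level of Sdc4 in this spread was not tested. The population controls lay among the cells, at 1546 FPKM in mMSC-PC, with 8 mMSCs above it and 8 below, and at 98.4 FPKM in HL1cm-PC.

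Sdc1, best known from epithelia and plasma cells, was expressed in every mMSC at a level well under that of Sdc4. Its values ran from 7.42 FPKM in mMSC14 through a median of 52.4 to 136 FPKM in mMSC9. In HL1cm1 to HL1cm5 they were 0, 18.3, 2.05, 21.7 and 0 FPKM. The cell types overlapped, since mMSC4, mMSC8 and mMSC14 at 12.4, 10.8 and 7.42 FPKM were below the highest HL1cm, while the other 13 mMSCs were above it. The mean log2 FPKM was 5.49 ± 1.18 (SD, n = 16) against 1.94 ± 2.22 (SD, n = 5), a difference of 3.55. Both population controls were above every cell of their type, at 329 FPKM in mMSC-PC and 83.7 FPKM in HL1cm-PC.

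Sdc2, the syndecan typical of fibroblasts and other mesenchymal cells, was the member with the smallest spread between mMSCs. It ran from 16.7 FPKM in mMSC15 through a median of 32.9 to 65.7 FPKM in mMSC9, and the SD of its log2 values was 0.64 (n = 16). In HL1cm1 to HL1cm5 it was at 21.6, 22.3, 1.02, 15.8 and 20.6 FPKM, the only member above 0 in all 5. Of these, 3 lay within the lower part of the mMSC range, HL1cm4 was just below the lowest mMSC and HL1cm3 was far below it. The difference of 1.58 in mean log2 FPKM, from 5.03 ± 0.64 (SD, n = 16) to 3.46 ± 1.93 (SD, n = 5), rested on that cell: without HL1cm3 it was 0.72 and no longer past 2-fold. The population controls were at nearly the same level, 108 FPKM in mMSC-PC and 113 FPKM in HL1cm-PC, and both were above every cell of their type.

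Sdc3, known mainly from the nervous system, was present in some mMSCs only. It was above 0 in 12 of 16 mMSCs, from 1.77 FPKM in mMSC1 to 27.7 FPKM in mMSC11, and listed at 0 in mMSC3, mMSC7, mMSC8 and mMSC14. The median was 9.81 FPKM and mMSC-PC was at 33.9 FPKM. Neither HL1cm-PC nor any of the 5 HL1cm had a value above 0. With 0 of 5 HL1cm above 0, the exact (Clopper-Pearson) 95% interval for the share of such cells still reached 52.2%. This interval takes the cells as independent draws and covers counting error only.

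Gpc1, a glypican that binds fibroblast growth factors through its chains, was the second highest member in the single mMSCs and the one with the clearest contrast. It ran from 83.1 FPKM in mMSC14 through a median of 303 to 801 FPKM in mMSC9, and its median ranked 377 among all genes. It was listed at 0 in HL1cm1 to HL1cm5 and in HL1cm-PC, so no fold is given. A single fragment of Gpc1 was worth roughly 0.57 to 0.90 FPKM in these 5 cells and 1.09 FPKM in HL1cm-PC, far under the lowest mMSC. In mMSC-PC Gpc1 was at 104 FPKM, below 14 of the 16 mMSCs and 1.74 below their mean on the log2 scale.

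Gpc4 was expressed in every mMSC at about the level of Sdc2. It ran from 3.00 FPKM in mMSC16 through a median of 21.7 to 58.5 FPKM in mMSC2. In HL1cm1 to HL1cm5 it was at 2.78, 0, 2.88, 0 and 0 FPKM. Every mMSC was above every HL1cm by these values, but mMSC16 exceeded HL1cm3 by far less than a fragment, which was worth roughly 1.63 FPKM in mMSC16 and 1.15 FPKM in HL1cm3. With all libraries rescaled to the same sum, or divided by their median ratio to a common reference, the cells overlapped and 2 members in place of 3 were apart. The mean log2 FPKM was 4.30 ± 1.22 (SD, n = 16) against 0.60 ± 0.82 (SD, n = 5), a difference of 3.70. The population controls were both high and close to each other, at 99.9 FPKM in mMSC-PC and 70.9 FPKM in HL1cm-PC, and the latter was 24.6 times the highest HL1cm.

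Gpc6, a glypican with a part in long bone growth, was near the limit of detection. It was above 0 in 9 mMSCs and at 1 FPKM or more in 6, with a highest value of 7.02 FPKM in mMSC1, a median of 0.478 and 8.74 FPKM in mMSC-PC. In HL1cm1 to HL1cm5 it was at 0, 0.468, 0.615, 0.790 and 0 FPKM, and it was listed at 0 in HL1cm-PC. These HL1cm values are below the 1 FPKM limit used here, and 7 of the 16 mMSCs were above the highest of them. The means differed by 0.48 on the log2 scale, less than the SD of 0.84 between mMSCs. Gpc3, a regulator of body growth that binds hedgehog proteins, was listed at 0 in all 16 mMSCs. The exact 95% interval for the share of mMSCs with Gpc3 above 0 reached 20.6%, and it too covers counting error only.

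Within the single mMSCs the order of the levels was Sdc4, Gpc1, Sdc1, Sdc2, Gpc4, Sdc3, Gpc6 and Gpc3. Sdc4 was above Gpc1 in 15 of 16 cells, by 2.40 ± 1.40 (SD, n = 16) on the log2 scale, and the exception was mMSC9, with 665 FPKM of Sdc4 and 801 FPKM of Gpc1. Gpc1 was above Sdc1 in all 16 cells, by 2.68 ± 0.97. The next neighbours did not differ beyond their spread: Sdc1 exceeded Sdc2 by 0.45 ± 1.17 and in 12 cells, Sdc2 exceeded Gpc4 by 0.73 ± 1.40 and in 12 cells, and Gpc4 exceeded Sdc3 by 1.66 ± 2.31 and in 13 cells. In the HL1cm, Sdc4 exceeded Sdc2 by 0.85 ± 4.46 (SD, n = 5) and in 3 cells, so no order could be given among the syndecans there. The order in mMSC-PC was another, and Gpc1 came after Sdc1 and Sdc2. Sdc4 was at 1546, Sdc1 at 329, Sdc2 at 108, Gpc1 at 104 and Gpc4 at 99.9 FPKM in that library.

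The same contrast appeared in the make-up of each family. FPKM is scaled by transcript length, so the members were summed. Sdc4 made up 75.1% of the summed syndecan FPKM in mMSC9 and 98.4% in mMSC14, with a median of 94.1% and a mean of 93.0% ± 5.57 (SD, n = 16) over the mMSCs. In mMSC-PC its share was 76.6%, with 16.3% from Sdc1 and 5.34% from Sdc2. In the HL1cm the leading syndecan changed from cell to cell: Sdc4 made up from 0% to 98.0%, with a median of 55.2%, Sdc2 led in HL1cm1 with 83.9%, and Sdc1 led in HL1cm4 with 57.8%. HL1cm-PC held all 3 in like amounts, with 33.3% Sdc4, 38.3% Sdc2 and 28.4% Sdc1. Of the summed glypican FPKM, Gpc1 made up 69.0% to 99.4% in the mMSCs, with a median of 91.9%, and 49.0% in mMSC-PC, where Gpc4 made up 46.9%. In HL1cm-PC all glypican FPKM came from Gpc4.

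**Figure D2:**
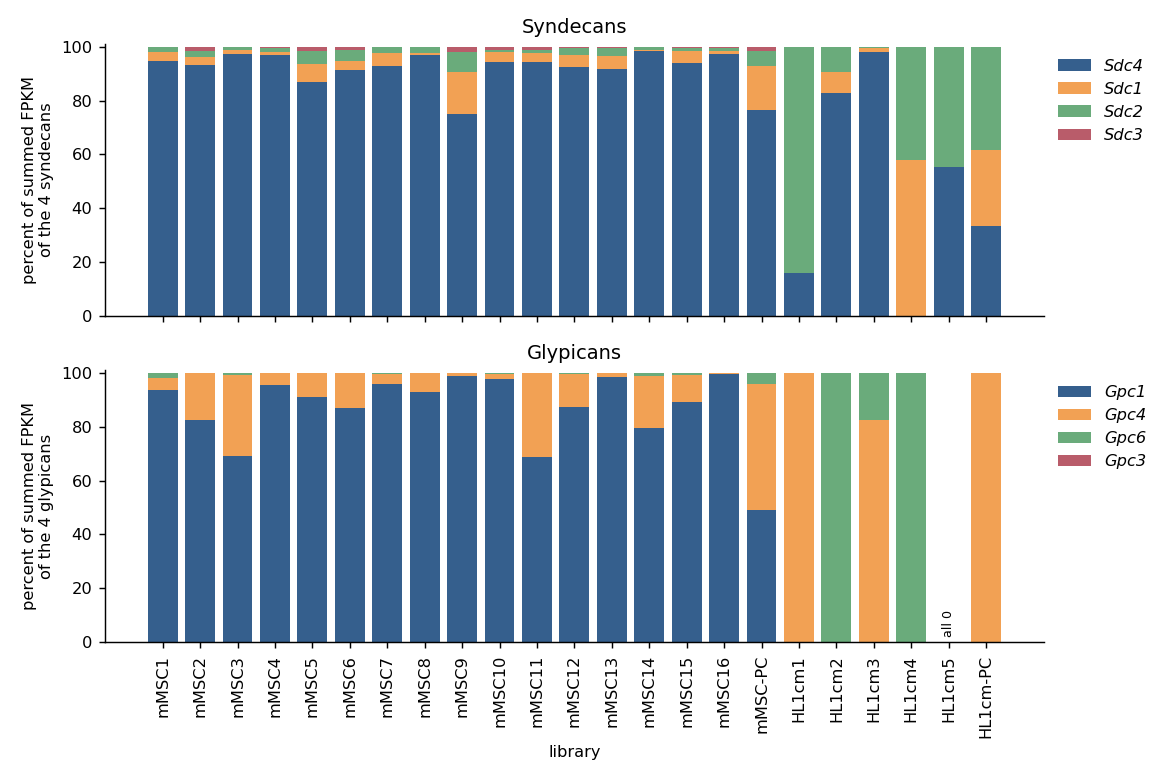
Share of each gene (percent of summed FPKM) among the 4 syndecans (top) and the 4 glypicans (bottom) in each library. Sdc4 holds 75.1% or more of every mMSC bar and Gpc1 69.0% or more, while the syndecan bars of the 5 HL1cm differ from each other. The HL1cm glypican bars rest on sums of 3.50 FPKM or less, and HL1cm5 has no glypican above 0. Those of HL1cm2 and HL1cm4 are all Gpc6, at 0.468 and 0.790 FPKM, under the limit of 1 FPKM.

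Several members were higher in a population control than in any single cell. In mMSC-PC, 5 members (Sdc1, Sdc2, Sdc3, Gpc4 and Gpc6) were above the highest of 16 mMSCs, out of 7 that reached 1 FPKM in 2 or more of these cells, where 8.6% of 10867 such genes were. In HL1cm-PC, 3 members (Sdc1, Sdc2 and Gpc4) were above the highest of 5 HL1cm, out of 4 that passed the same limit there, where 29.0% of 8244 such genes were. The rise over the mean of the cells was 2.54 for Sdc1, 1.58 for Sdc2, 1.64 for Sdc3, 1.95 for Gpc4 and 2.84 for Gpc6 in mMSC-PC on the log2 scale, while Sdc4 was 0.18 below the mean and Gpc1 1.74 below it. The largest value of this kind was 5.97 for Gpc4 in HL1cm-PC. Each population control is 1 library with more genes above 0 than any single cell, and the part of that difference in these values was not tested. In a bulk library, the share of cells that express a gene and the RNA per cell cannot be told apart.

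Between single mMSCs, few pairs of members had a high correlation. Over the 16 cells, the 6 members that reached 1 FPKM in 8 or more cells gave 15 pairs, of which 13 had a Pearson's r of log2 FPKM between -0.5 and 0.5. The sources name no separate cultures for these cells, so these values are a description of them. The share of all gene pairs within the same limits was not computed, so the count is not read as particular to the members. Sdc1 and Gpc1 had the highest value, with r = 0.61 and Spearman's rho = 0.64, and r = 0.52 without mMSC8 and mMSC14. Both were lowest in mMSC14 and highest in mMSC9, the mMSC with the fewest genes above 0 (5198), and r was not repeated without mMSC9. Sdc1 and Sdc3 had r = 0.58, which was 0.29 without mMSC8 and mMSC14. Gpc1 and Gpc4 had the lowest value, with r = -0.47 and rho = -0.49, and r = -0.48 without mMSC11 and mMSC14. Sdc4 and Gpc1, the leading members of their families, had r = -0.29. Without mMSC5 and mMSC16, the cells with the least and the most Sdc4, it was -0.63, and the value of Sdc4 and Gpc4 went from -0.11 to 0.55, so the values of Sdc4 depend on those 2 cells.

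**Figure D3:**
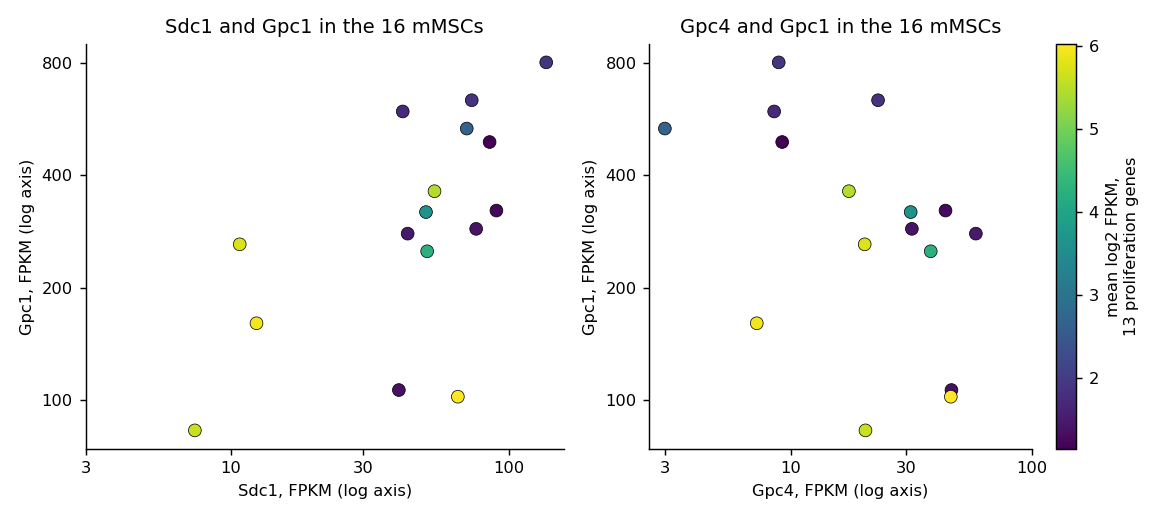
Sdc1 against Gpc1 (left) and Gpc4 against Gpc1 (right) in the 16 mMSCs, as FPKM on log axes, with each point coloured by the mean log2 FPKM of 13 proliferation genes. Gpc1 is higher in cells with more Sdc1 (r = 0.61) and lower in cells with more Gpc4 (r = -0.47), and the 3 cells with the least Sdc1 are among those with high proliferation values.

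A pair of other measures moved with Sdc1 and Gpc1. The mean log2 FPKM of 13 proliferation genes, a list chosen after values of these data had been seen, had r = -0.64 with Sdc1 and -0.53 with Gpc1, and -0.48 and -0.30 without the 2 cells farthest from the median. The cells mMSC4, mMSC8 and mMSC14, with the least Sdc1, had values of 5.95, 5.78 and 5.63 on this scale, while mMSC11, with the highest value of 6.03, had 65.6 FPKM of Sdc1. The number of genes above 0 had r = -0.46 with Sdc1 and -0.54 with Gpc1. The part of these measures in the relation of Sdc1 and Gpc1 was not tested. For Sdc2 and Gpc4 the value with proliferation was -0.09 and -0.03.

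The genes whose log2 FPKM was most like each member over the 16 mMSCs were taken from 3562 genes. For Sdc1 they were Atg4a (r = 0.89), Rpl34-ps1 (0.80) and Smoc2 (0.75), for Sdc2 Ptprk (0.83), Dynll1 (0.75) and Anxa3 (0.75), and for Sdc4 Rbm28 (0.80), Myl9 (0.79) and Mex3c (0.72). For Gpc1 they were Dusp6 (0.86), Shfm1 (0.85) and Ssr4 (0.79), and for Gpc4 2210403K04Rik (0.80) and Plekha2 (0.77). Dusp6 encodes a phosphatase that is switched on by fibroblast growth factor signalling and acts on ERK, and Smoc2 encodes a matrix protein. The highest of so many values over so few cells is high by selection, and Rpl34-ps1, which can share reads with its parent gene, fell from 0.80 to 0.35 when 2 cells were left out. Most of the others fell by less, among them Atg4a to 0.71, 2210403K04Rik to 0.59, Mex3c to 0.60 and Plekha2 to 0.64. Smoc2, Ptprk and Dynll1 rose slightly.

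The genes that make, alter, shed or use heparan sulfate chains were examined as 9 lists of 90 genes, all of which were in the table. Of the 90, 31 were more than 2-fold higher and 9 more than 2-fold lower in mMSCs than in HL1cm, and for 14 every mMSC was above every HL1cm, counted among the 69 that were tested. These are 44.9%, 13.04% and 20.3% of the 69, where 21.4%, 21.6% and 2.26% of all genes tested were so. None had every mMSC below every HL1cm. Many of the genes apart, among them Thbs1, Ptn and Pdgfrb, entered the tested genes only through their mMSC values. The shares of all genes hold such genes too, and the part of the filter in this contrast was not tested. The median difference was 0.92 over the 69 and 0.17 over all 90, most of the 21 untested genes being at a difference of 0, against 0.08 for all genes tested. The counts of each list that follow are of its tested genes, to be read against the same shares, and the medians are over all its genes.

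None of the enzymes that build the chain separated the cell types fully. Of 10 linkage and polymerisation genes, 3 were more than 2-fold higher and 1 lower, and of 14 sulfation and epimerisation genes, 1 was higher and 2 lower, with no gene apart in either list. The median difference was 0.35 over the first list and 0.00 over the second, in which 2 and 5 genes were listed at 0 in all libraries. Over the tested genes of each list it was 0.48 and 0.31. Ext1, a subunit of the chain polymerase, was at 10.8 to 89.1 FPKM in mMSCs, with a median of 30.8, and at 0 to 21.3 in HL1cm. Hs6st2, which adds sulfate at the 6-O position, had a median of 43.6 FPKM in mMSCs and was listed at 0 in every HL1cm library. Among 4 remodelling genes, 1 was higher and 1 lower, with a median difference of 0.13. Sulf2, which removes 6-O-sulfate outside the cell, was the lower one, with a median of 11.0 FPKM in mMSCs and 27.4 FPKM in HL1cm. The highest mMSC had 54.2 FPKM of Sulf2 and the lowest HL1cm 8.28, so the cells overlapped.

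Among the genes listed for syndecan shedding and glypican release, which include protease inhibitors, some differed widely. Of 10 genes, 4 were more than 2-fold higher in mMSCs, none was lower, and the same 4 were apart (Timp3, Timp1, Mmp2 and Mmp14). The median difference over the 10 was 0.50. Timp1, an inhibitor of matrix metalloproteinases, was at 1780 to 9176 FPKM in mMSCs against 11.7 to 56.7 FPKM in HL1cm, a difference of 7.62. Timp3, which inhibits syndecan shedding, was at 52.1 to 909 FPKM in mMSCs and at 0.75 FPKM or less in HL1cm. Mmp2, gelatinase A, was at 22.1 to 291 FPKM and at 1.54 FPKM or less in HL1cm.

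Most partners of the syndecan tail were above 0 in cells of both types, but Sdcbp2 and Src were listed at 0 in every HL1cm library. Of 11 genes, 5 were more than 2-fold higher and 1 (Ezr, ezrin) lower in mMSCs, none was apart, and the median difference was 0.64. Sdcbp (syntenin), whose binding site is the capital stretch at the end of the sequences above, was at 37.0 to 157 FPKM in mMSCs and 6.15 to 148 FPKM in HL1cm. Its values overlapped, unlike those of Sdc4. Among 7 other proteoglycans, 6 of them tested, 2 were higher, none of the tested genes was lower, 1 was apart, and the median difference was 0.00. The untested gene, Srgn, was above 0 in 1 HL1cm and in no mMSC. Cd44, a hyaluronan receptor that can carry heparan sulfate, was the one apart, at 103 to 588 FPKM in mMSCs and 1.94 FPKM or less in HL1cm.

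Of 18 ligands that bind heparin, 10 were more than 2-fold higher and 1 lower in mMSCs, 6 were apart, and the median difference was 2.57. Thbs1 (thrombospondin 1) was at 61.0 to 630 FPKM in mMSCs and listed at 0 in all 5 HL1cm. Fgf7, a growth factor for epithelia, was at 52.6 to 497 FPKM against 21.1 or less, and Ptn (pleiotrophin), a ligand of Sdc3, was at 11.2 to 237 FPKM and listed at 0 in all HL1cm. Of 14 receptors, 5 were higher and 3 lower, 3 were apart, and the median difference was -0.19. Fgfr1 was at 12.7 to 97.5 FPKM against 0.93 or less, Pdgfrb at 7.57 to 48.3 FPKM against 0 in all HL1cm, and Itgb1, the integrin chain that works with Sdc4 in adhesion, at 93.0 to 231 FPKM against 9.32 to 54.8.

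**Figure D4:**
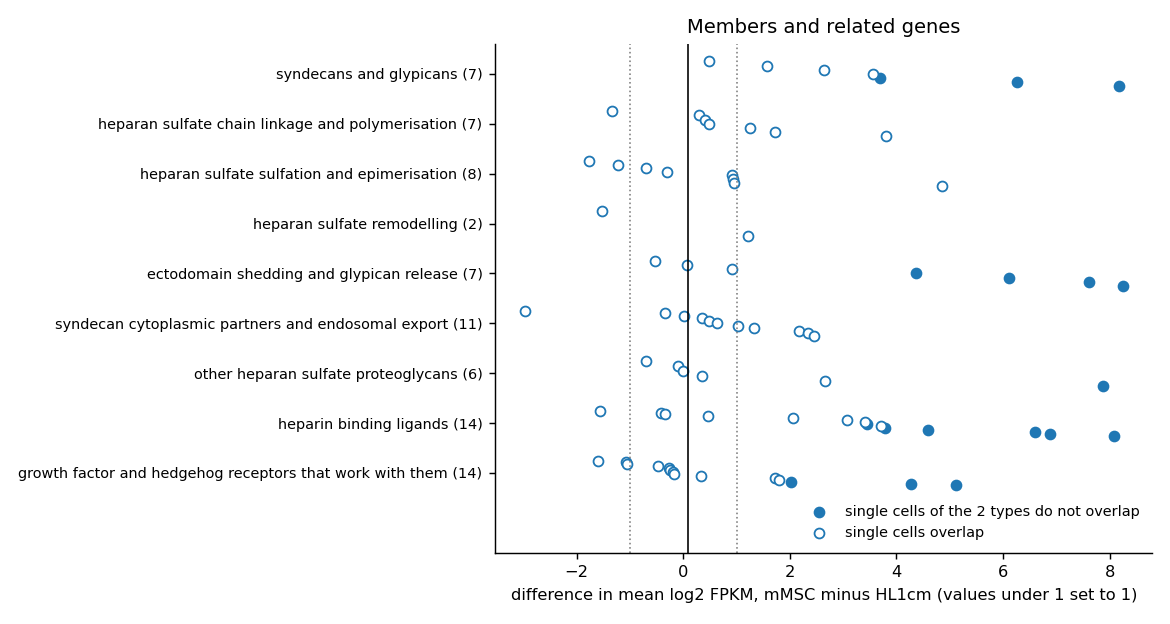
Difference in mean log2 FPKM, mMSC minus HL1cm, for each tested gene (1 circle a gene, number of tested genes in brackets) of the members and of 8 related lists. Filled circles are genes whose cells do not overlap, dotted lines mark 2-fold and the solid line the median of all genes tested (0.08). The filled circles lie among the syndecans and glypicans, the shedding genes, Cd44, the ligands and the receptors, and all are to the right.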

How the data were processed

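Deposited FPKM values were used. To make them, the authors had aligned paired reads to mm10 with TopHat2 2.0.12 and run Cufflinks 2.2.1. FPKM scales fragments by exon length and by mapped fragments, so it holds no read count. No count model was fitted, and the depth in reads is not given here. The worth of 1 fragment was approximated as the 2.5th percentile of FPKM times kilobases over 4097 genes with a single transcript of 1500 bases or more. All 23 sample columns were used.

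The log2 scale had a limit of 1 FPKM, to which lower values were raised. Genes that reached 1 FPKM in 2 or more of 21 single cells were tested. A gene was past 2-fold where the mean log2 FPKM of the cell types differed by 1 or more, and apart where every cell of one type was above every cell of the other. The cells of a type are 1 sample, so no p-value was computed. Alternatives changed the limit, scaling, filter and cells. Code was tested on simulated data.

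The text names all 8 members, the 3 genes most like each member that reached 1 FPKM in 14 or more mMSCs, and from each list at most 3 genes apart with the largest differences and the gene of highest mean. A gene that this rule takes is not reported here. Mmp14, Ezr, Sdcbp2, Src, Srgn and the markers are outside this rule and were chosen after their values were seen. The members and lists were chosen with earlier results of these data known.

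Coordinates, transcripts and encoded proteins came from GENCODE M21 (GRCm38). Tools were Python 3.11.15, numpy 2.4.6, pandas 2.3.3, Biopython 1.88 and matplotlib 3.10.9.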

Additional observations from a re-analysis of the deposited data

Results flagged for a closer look

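Sdc2 in HL1cm3 stood apart from the other 4 HL1cm, with a log2 FPKM of 0.024 where the next lowest cell, HL1cm4, was at 15.8 FPKM. The gap took up 0.889 of the range of the 5 cells, above the Dixon limit of 0.71. Chance passes that limit in about 1 in 20 groups, and 5 groups were examined at both ends.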

How the results depend on the processing

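Of 256 alternative values for 55 results, 232 stayed within the spread between cells, or within 1.5 times for counts, shares of genes and SDs. Some of these could not move: Gpc3 was at 0 throughout, and leaving out an HL1cm could not change the differences of Sdc3, Gpc1 and Gpc6. Leaving out cells of either type could raise the number of members apart but not lower it. With rescaled sums or median ratios, which could lower it, 2 members were apart. The limits were also wide, since a fall of the Sdc2 difference to 0.72 and of the members past 2-fold to 4 counted as staying. With the population controls in place of the cells, the Sdc2 difference reversed to -0.067, Sdc4 made up 76.6% of the syndecan FPKM in mMSCs, and the differences moved to 5.09 for Sdc3, 6.71 for Gpc1, 0.49 for Gpc4 and 3.13 for Gpc6. With the limit at 10 FPKM, differences fell to 0.43 for Sdc3, 4.85 for Gpc1 and 1.15 for Gpc4, and 4 members were past 2-fold. With the limit at 0.1 FPKM they were 5.13, 11.49 and 5.69, so the size of a difference from cells listed at 0 is set by the limit. Leaving out each HL1cm gave 5 to 6 members past 2-fold, 3 members apart and an Sdc4 share of 38.5% to 63.0% in HL1cm. Without mMSC9 and mMSC15, 6 members were past 2-fold and 3 apart. With no filter, 10.9% of genes were past 2-fold higher, and with a filter of 10 FPKM in 5 cells, 32.2%, with 4.34% apart. The median over all genes was 0.23 with rescaled sums and -0.06 with median ratios. Leaving out mMSC16, a choice made after seeing the data, left 3 members apart, a number that it could not lower. No paired analysis was possible because the results come from no test, and the shared numbers only name cells of different types. With 5 HL1cm, the low members cannot be ranked there.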
